A study of Mus musculus with 2 samples.

Results

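Cytoplasmic ribosomal protein genes were examined in Tie2Cre lineage cells sorted from mouse hearts at embryonic day 12.5. They were taken by symbol: Rpl or Rps with a number and at most 1 of the letters a, l or x, together with Rplp0, Rplp1, Rplp2 and Rpsa, without kinases and pseudogenes. Probe sets annotated to exactly 1 such gene covered 46 symbols. Rps4l was left out because RefSeq lists it as a transcribed pseudogene, so 45 genes remained, 24 of the large and 21 of the small ribosomal subunit. They were read by 99 of the 45037 probe sets that are not array controls, and the platform held 18193 named genes in all.

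The control array held cells of genotype Tie2Cre;Tbx20 +/loxP and the mutant array cells of genotype Tie2Cre;Tbx20 loxP/-, 1 array each. Tie2Cre is shared by both genotypes and acts in endothelium, endocardium and the cushion mesenchyme that arises from it, and also in blood cells. After digestion with collagenase and dispase, live lineage cells that did not stain for CD41, CD45 or Ter119, which mark blood cells, were sorted. Tbx20 encodes a cardiac T-box factor. Its non-floxed allele is working in the control, and in the mutant it is null in every cell of the embryo. Pooling of embryos is not given in the sources used here. Each genotype has 1 array, so values carry no replicate error, no p-value is given, and genotype and preparation cannot be told apart.

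Cytoplasmic ribosomes consist of a small subunit, which reads the messenger RNA, and a large subunit, which forms peptide bonds. Each subunit is built from ribosomal RNA and a set of proteins that are needed in equal amounts, and their messenger RNAs are among the most abundant of growing cells. Many of these messenger RNAs begin with a C and a run of pyrimidines, the terminal oligopyrimidine (TOP) tract, through which growth signals acting by mTOR adjust their translation. Their genes also have many processed pseudogenes, so short probes can match more than 1 locus.

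The start sites below are those of genes described further on, and show which of them carry a pyrimidine run there: Rpl38 and Rpl13a had the lowest ratios, Rpl27a and Rps6 carry long runs, Rps27 and Rpl39 lay farthest from the family, and Rpl41 had the highest ratio but for Rps27. Each line gives bases from 10 before to 20 after a RefSeq start (GRCm38.p6), on the gene's strand, with capitals from the C nearest to the start that opens such a run to the run's end; pyrimidines before that C are in lower case.
Rpl38: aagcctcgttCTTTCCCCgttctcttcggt
Rpl13a: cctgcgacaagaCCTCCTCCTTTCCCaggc
Rpl27a: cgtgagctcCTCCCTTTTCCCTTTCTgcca
Rps6: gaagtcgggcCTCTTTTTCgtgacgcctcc
Rps27: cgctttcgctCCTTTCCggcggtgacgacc
Rpl39: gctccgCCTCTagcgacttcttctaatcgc
Rpl41: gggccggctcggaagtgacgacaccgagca
They lie at chr11:114668570-114668599 (plus strand) for Rpl38, chr7:45128726-45128755 (minus) for Rpl13a, chr7:109519185-109519214 (plus) for Rpl27a, chr4:86857348-86857377 (minus) for Rps6, chr3:90213629-90213658 (minus) for Rps27, chrX:37085203-37085232 (minus) for Rpl39 and chr10:128549149-128549178 (minus) for Rpl41. The capitals begin at the listed start in Rpl38, Rps6 and Rps27, with further pyrimidines just before it in all of these, and no such run lay within 10 bases of the listed Rpl41 start. Among the 45 genes, 40 had 48 starts in the table. A C followed by 4 bases that are each C or T, searched on the gene's strand only, stood exactly at 8 of these starts (16.7%), against 823 of all 32851 starts (2.51%). Within 10 bases of the start it was found at 27 of 48 (56.2%), against 30.7% of all starts. A match is a description of these letters and not of a functional tract.

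Ribosomal protein genes lay among the brightest features of both arrays, and most read lower in the mutant as deposited. The floor was each array's median signal, and 40 of the 45 genes exceeded it on both (control 91.3, mutant 82.4). Rpl39 was above it in the control only, and Rpl37, Rpl39l, Rpl3l and Rps16 on neither. A gene was represented by its probe set with the highest mean signal. Over the 40 genes the median signal was 26661 for control and 22527 for mutant cells. Their log2 ratios, mutant over control, had a median of -0.25 and an SD of 0.38, with 36 genes lower and 4 higher. Of all 10665 genes above the floor on both arrays, 51% were lower and 49% higher, with a median of -0.0070. In bulk samples, fewer cells of a type and less RNA per cell cannot be told apart. A 2-fold difference was reached by 0 genes downward, against 1.46% of all genes, and by 1 upward, Rps27, against 0.647%.

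**Figure D1:**
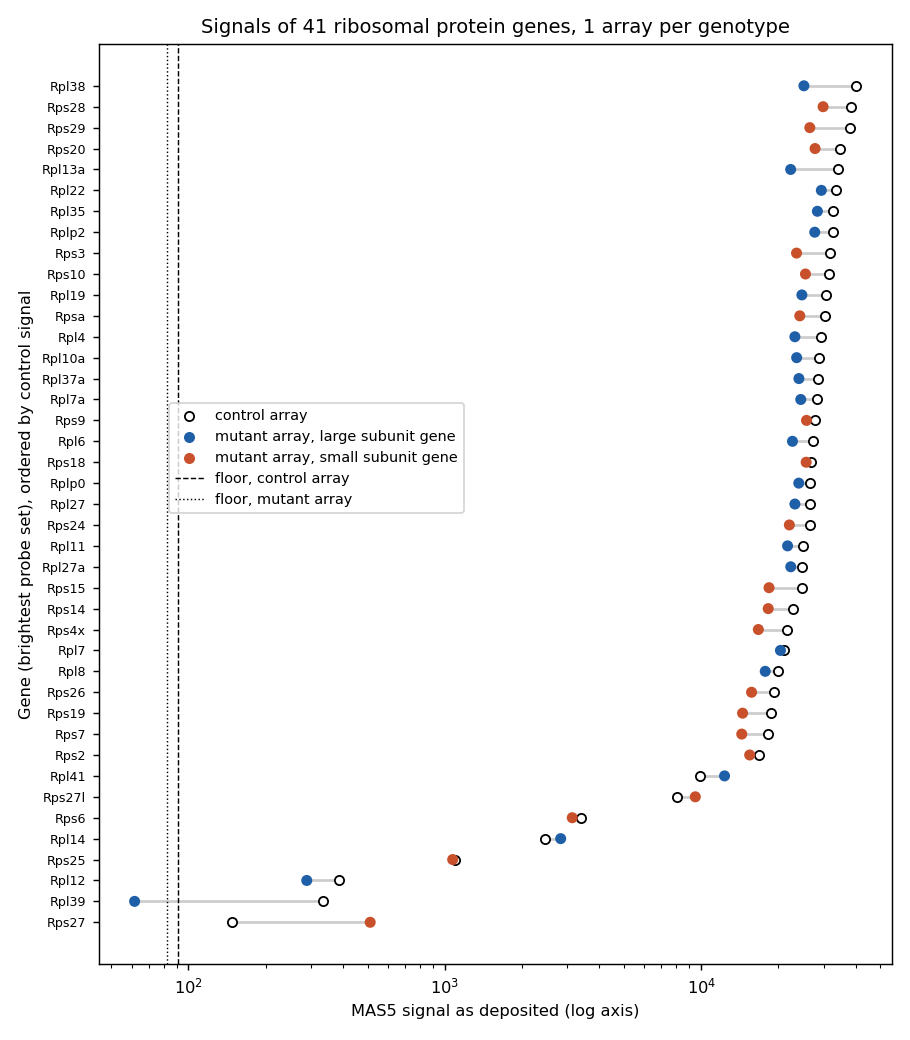
MAS5 signal (log axis) of the brightest probe set of the 41 genes above the floor on at least 1 array, open circles for the control array and filled circles for the mutant array, coloured by subunit; dashed and dotted lines mark the floors. The 33 genes with a control signal over 10000 all have their mutant point to the left, while Rpl41, Rps27l, Rpl14 and Rps27 have it to the right.

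Brightness and direction went together. All 33 genes with a control signal over 10000 were lower in the mutant, with a median log2 ratio of -0.29 (SD 0.14). Of the 7 dimmer ones, 3 were lower and 4 higher. Brightness here is that of the single-gene probe set, and some of these genes are also named by bright probe sets shared with other genes. Such probe sets read 25243 and 20880 for Rpl12 (-0.27), and 29316 and 24680 for Rps25 (-0.25). The same held for abundant transcripts that encode no ribosomal protein. Above a mean signal of 20000, the 45 ribosomal probe sets had a median of -0.25 (SD 0.14), and the 34 probe sets of other genes a median of -0.30 (SD 0.16). Every one of these 45 and of these 34 probe sets was lower. In the latter set were cytoskeletal Tuba1a, read at 31961 and 19868, and the growth factor gene Igf2, one probe set of which read 29235 and 23486. Between 10000 and 20000 the medians were -0.17 for 17 ribosomal and -0.095 for 261 other probe sets. Between 1000 and 10000 they were 0.051 for 12 and 0.029 for 6124.

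**Figure D2:**
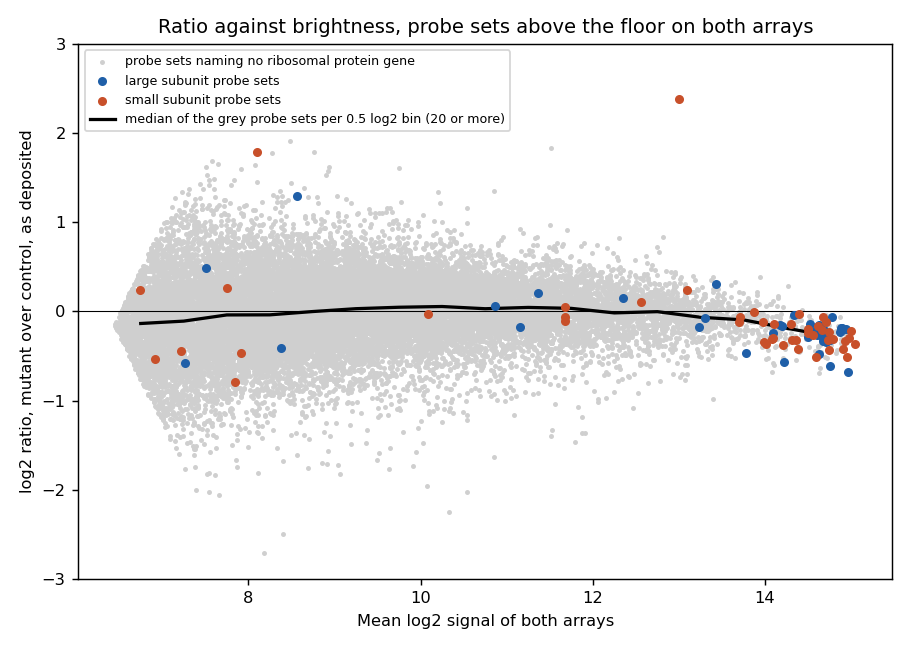
log2 ratio of mutant over control, as deposited, against mean log2 signal for probe sets that exceed the floor on each array. Coloured points are ribosomal protein probe sets by subunit, and the black line is the grey median per bin of brightness. Grey points name no gene of the symbol rule, and ribosomal genes outside it, such as Fau and Rps3a1, are among them. At the bright end the grey median bends below 0 and the coloured points lie around it, while a probe set of Rps9 stands far above at 2.38.

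Quantile normalization, which gives both arrays the same distribution of signals, removed the shift. The median of the 40 genes became 0.0015 (SD 0.34), with 18 lower and 20 higher, against 50.3% lower and 49.6% higher over all genes so treated. At 2-fold, 0 of the 40 were lower, against 1.28% of all genes, and Rps27 alone was higher, against 0.797%. In ranks, the median position of the 40 genes among all probe sets was 98.5 on the control array and 90.5 on the mutant array, counted from the brightest. The rank was better in the mutant for 20 genes, worse for 18 and equal for 2. Among the 100 brightest probe sets, 32 read a single ribosomal protein gene on each array, and 67 named such a gene alone or with others. Because the family fills much of the bright end, ranks and quantile normalization can hide a change shared by its genes. The 99 probe sets held 4.82% of the summed control signal and 4.24% of the mutant one, and 4.52% and 4.55% after quantile normalization. A loess fit of ratio on brightness left a median of -0.072, or -0.090 when ribosomal probe sets were kept out of the fit. In simulated data with a sharp bend at the bright end, such a fit removed a part of the trend only. The simulated bend was not matched to these arrays, and what the fit left here was not tested.

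**Figure D3:**
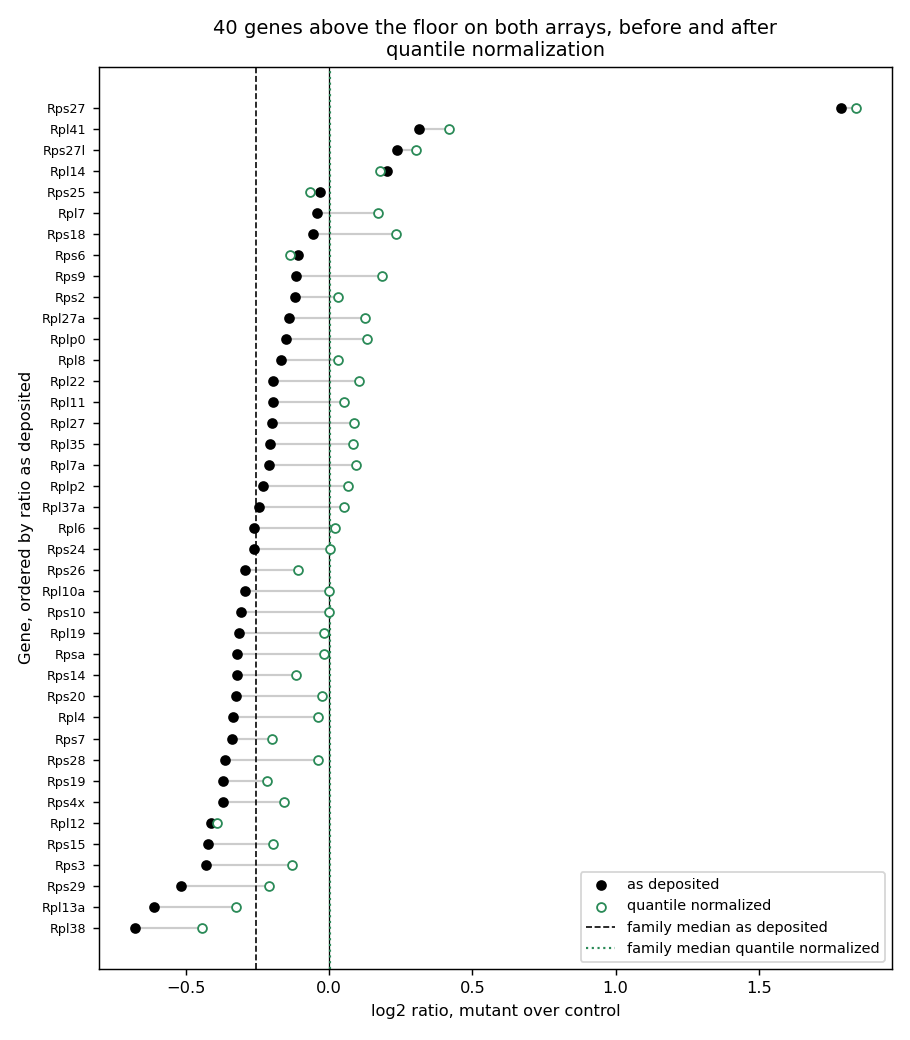
log2 ratio of mutant over control for the 40 genes above the floor on both arrays, as deposited (black) and after quantile normalization (open green), with the family medians as dashed and dotted lines. The medians are -0.25 and 0.0015, the bright genes move to the right together, and Rps27 stays apart at 1.79 and 1.84.

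In the large subunit, 18 of 20 genes above the floor on both arrays were lower, with a median log2 ratio of -0.21 as deposited and 0.059 after quantile normalization. Rpl38, whose protein is known in the mouse for a part in the translation of Hox messenger RNAs, gave the brightest probe set of the control array. It read 40295 in control cells and 25157 in mutant cells, a log2 ratio of -0.68, and moved from rank 1 to rank 49. Its ratio was the lowest of the 40 on both scales, at -0.45 after quantile normalization. Only 1 probe set reads it alone. Rpl13a, whose protein is also known as a translational silencer outside the ribosome, read 34175 and 22336, a log2 ratio of -0.61. Its 4 probe sets were all lower, from -0.61 to -0.07, so the value depends on which one is read.

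The stalk proteins recruit elongation factors to the large subunit. Rplp0, their anchor, read 26684 and 24021, a log2 ratio of -0.15. Its partner Rplp2 read 32547 and 27730, at -0.23. Rpl11, which with Rpl5 and a small ribosomal RNA forms the particle that binds the p53 regulator Mdm2, read 24886 and 21724, at -0.20. These genes lay close to the family median, and after quantile normalization at 0.13 for Rplp0, 0.066 for Rplp2 and 0.050 for Rpl11. The other large subunit genes over 10000 in the control ranged from -0.34 for Rpl4 to -0.042 for Rpl7. Rpl22, an RNA-binding protein, read 33694 and 29424, at -0.20, with 3 probe sets from -0.48 to -0.17. Its paralog Rpl22l1, outside the symbol rule, read 12898 and 11604, at -0.15. The 3 probe sets of Rpl27 ranged from -0.57 to -0.20 and the 3 of Rpl7 from -0.15 to 0.058. Rpl12, whose single-gene probe set is dim, read 385 and 289, at -0.41.

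In the small subunit, 18 of 20 genes were lower, with a median of -0.31 as deposited and -0.054 after quantile normalization. The small subunit median was 0.11 below the large subunit median on both scales, but the order depended on which probe sets were read. When each gene's probe sets were reduced to their median, it was -0.21 for the small and -0.22 for the large subunit, and with unsuffixed probe sets alone -0.11 and -0.22. Rps29, a zinc-binding protein of the subunit's head, read 37950 and 26525, a log2 ratio of -0.52, with its 3 probe sets from -0.52 to -0.16. Rps3, at the messenger RNA entry channel and also known in DNA repair, read 31748 and 23546, at -0.43, while its other probe set above the floor read 3213 and 3314. Rps15 read 24639 and 18391, at -0.42. After quantile normalization these genes were at -0.21 for Rps29, -0.13 for Rps3 and -0.20 for Rps15.

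Rps28, which had the highest control signal of this subunit, read 38496 and 29885 (-0.37), and its 3 probe sets agreed within 0.14. Rps19, the gene most often mutated in Diamond-Blackfan anaemia, read 18737 and 14505, at -0.37. Rps14, a gene of the 5q- syndrome in humans, read 22844 and 18256, at -0.32. Rpsa, also known as a laminin receptor, read 30283 and 24240, at -0.32. The ribosomal probe sets over 20000, which include those of Rps28, Rps14 and Rpsa, ranged from -0.68 to -0.033. The 4 measured probe sets of Rps20 ranged from -0.47 to 0.26 and the 4 of Rps18 from -0.44 to -0.033. Rps25 read 1099 and 1073, at -0.034. Rps6, the substrate of S6 kinases, read 3391 and 3141, at -0.11. Probe sets that name Rps6 together with a pseudogene copy were in part far brighter and in part dimmer. Of these, the one with the highest control signal read 30638 and 23059, at -0.41. Ratios of the dimmer ones went either way, among them 0.34 (400 and 507) and -0.24 (589 and 499).

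Of the 41 genes above the floor on at least 1 array, 4 lay farther from the family median than 3 robust SDs (0.48 on the log2 scale, from the median absolute deviation). Among all 10665 genes above the floor on both arrays, a set that leaves out genes such as Rpl39, 27.5% lay outside the same limits. The limits come from the family's own spread, and most of its genes are bright, where ratios of other genes also spread less. The shares are thus not alike. Rps27, a zinc-binding small subunit protein, read 148 on the control array. The mutant array read 512, which is 3.45-fold higher, a log2 ratio of 1.79. Its only single-gene probe set was thus close to the floor in the control. The probe set annotated to Rps27 and the retrogene Rps27rt read 37112 and 29039, at -0.35, near the family median. Rpl39, a very small protein lining the peptide exit tunnel, read 335 on the control array but 61.7, under the floor, on the mutant array. It was at least 4.06-fold lower. The probe set that names Rpl39 and a transcribed pseudogene read 32887 and 22711, at -0.53. For both genes the deviating probe set was the dim one.

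Rpl41, the smallest ribosomal protein, read 9937 and 12333, a log2 ratio of 0.31, and 0.42 after quantile normalization. Of its 4 probe sets above the floor, 3 were higher and 1 lower, from -0.58 to 0.49. Rps27l, a paralog of Rps27 known as a target of p53, read 8051 and 9485, at 0.24, and 0.30 after quantile normalization. Its 3 probe sets ranged from -0.068 to 0.24. Rps27l lay just outside the limit, 0.49 from the family median, and Rpl14, read at 2461 and 2831, just inside at 0.46. Rpl41, Rps27l and Rpl14 all had control signals under 10000. After quantile normalization the limit was 0.51, and only Rps27 and Rpl39 were still beyond it. Other paralogs were under the floor: Rpl3l, the striated muscle form of Rpl3, read 7.50 and 2.16, and Rpl39l, known from testis, 37.1 and 78.3.

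Of the 99 probe sets, 85 exceeded the floor on both arrays, and 5 of these lay farther than 0.58 from their median of -0.21, against 17.3% of all 19273 single-gene probe sets above the floor. This limit too comes from the spread of the ribosomal probe sets. A probe set of Rps9, a small subunit protein, read 3582 on the control array and 18654 on the mutant array, 5.21-fold higher. The brightest Rps9 probe set read 27878 and 25751, at -0.11, and a dim one 146 and 101. The large difference thus belonged to 1 of 3 probe sets. A probe set of Rpl37a read 242 and 593, at 1.30, beside -0.24 and -0.25 for the other probe sets of that gene. The remaining ones were those of Rps27, a dim one of Rpl41 (153 and 215) and a dim one of Rps24 (302 and 174). Of the 5, 4 had a control signal under 1000, where 11 of the 85 probe sets lay.

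Agreement between probe sets depended on brightness. The 20 genes with several probe sets above the floor had a pooled SD of 0.45 within genes, against 0.35 over 5174 genes of the whole array. Rps9 carried much of it: without Rps9, left out after its values were seen, the pooled SD was 0.30 over 19 genes. The value of the whole array keeps all its genes, so 0.30 cannot be set against it. Among ribosomal probe sets over 10000 it was 0.15 (15 genes), the same as the 0.15 of other genes at that brightness (54 genes). Among those at or under 10000 it was 0.93 (4 genes), or 0.43 without Rps9 (3 genes). The SD of 0.14 over the 33 bright ribosomal protein genes did not exceed this probe error. In 12 of the 20 genes every probe set had the same sign. The 5 measured probe sets of Rpl35 ranged from -0.35 to -0.059 and those of Rps10 from -0.51 to -0.0062.

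**Figure D4:**
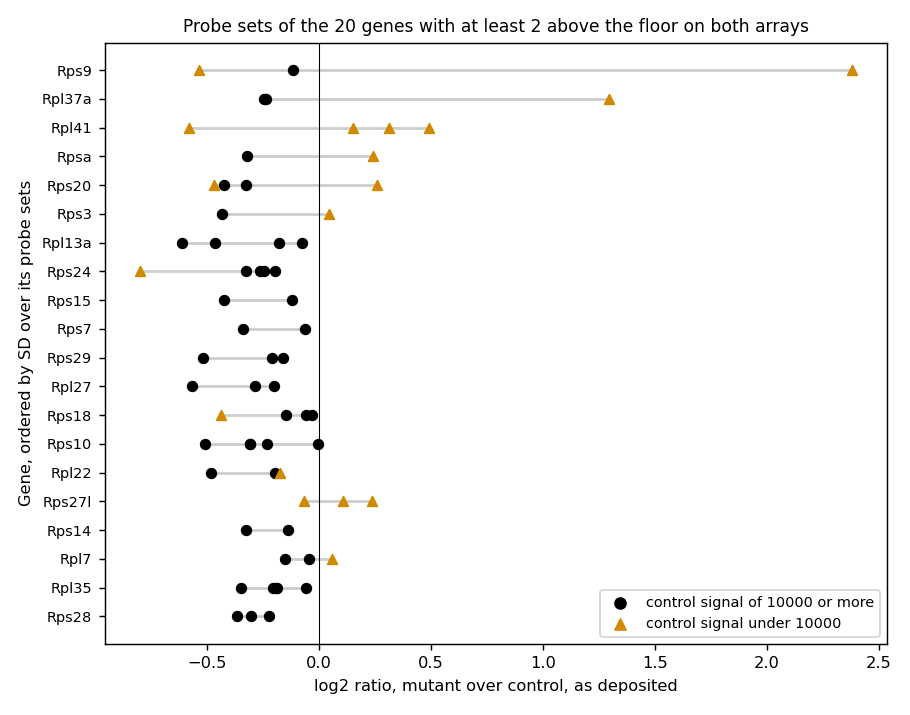
log2 ratio of mutant over control, as deposited, for each probe set of the 20 genes with at least 2 above the floor on both arrays; black circles have a control signal of 10000 or more, orange triangles less, and grey lines join probe sets of a gene. The black circles of all genes lie below 0, and the wide genes (Rps9, Rpl37a, Rpl41) are spread by their orange triangles.

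Among genes of translation outside the family, most elongation factor and other TOP genes read lower as deposited, and most mitochondrial ribosomal protein genes read higher. Of 6 elongation factor genes, 5 were lower, against 51% of all genes, with a median of -0.23 as deposited and -0.038 after quantile normalization. Eef1a1, which brings transfer RNAs to the ribosome, read 27802 and 22695, at -0.29. Eef1b2, its exchange factor, read 21737 and 14357, at -0.60. Of 16 other genes with TOP messenger RNAs, which include 4 of those elongation factors, 14 were lower, with a median of -0.30, and -0.081 after quantile normalization. This list and the elongation factor list are bright, each with a median control signal of 18903. Of the other single-gene probe sets between 10000 and 20000, 71.3% were lower too, as were all of those over 20000. The brightest TOP gene, the intermediate filament gene Vim, read 35185 and 27117, at -0.38. Hnrnpa1, a splicing factor, had the largest ratio there: it read 7265 and 4453, at -0.71 as deposited and -0.68 after quantile normalization. Fau, which encodes a small subunit protein fused to a ubiquitin-like domain, read 25349 and 18688, at -0.44. Fau, Rps3a1, Rpl22l1 and Rpl7l1, ribosomal genes outside the symbol rule, had 3 of 4 lower and a median of -0.18.

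The lists that follow had median control signals from 1471 to 5713. Of other single-gene probe sets with a mean signal between 1000 and 10000, 3347 of 6124 were higher, and of all genes 49%. Of 29 initiation factor genes, 16 were higher (55.2%) and 13 lower, with a median of 0.064. Eif3h, the brightest by mean signal, read 14600 and 15271, at 0.065, and Eif4e, which binds the messenger RNA cap, read 1892 and 2714, at 0.52. Ribosome biogenesis genes, which make and process ribosomal RNA, had 23 of 42 higher and a median of 0.042. Their brightest member, the nucleolar chaperone gene Npm1, read 28466 and 20982, at -0.44, and Rrp9 read 368 and 506, at 0.46. Mitochondrial ribosomal protein genes, whose products translate the mitochondrial genome, were higher in 62 of 76 cases (81.6%), against 49% of all genes and 3347 of those 6124 probe sets. Their median was 0.16 as deposited and 0.14 after quantile normalization, with 62 of 76 higher on that scale too, and 0 of them reached 2-fold. Mrps28 read 2751 and 4202, at 0.61. The brightest, Mrpl52, read 18948 and 17132, at -0.15. Proteasome genes were higher in 26 of 36 cases (72.2%, median 0.12), against 49% of all genes. Psma7 read 9973 and 11625, and the dim Psma8 120 and 227. Respiratory chain genes were higher in 40 of 81, with a median of -0.0051 that became 0.071 after quantile normalization and 0.080 after loess. Their brightest by mean signal, Ndufb7, read 22020 and 19721, at -0.16, and the dim Cox4i2 313 and 119, at -1.39.

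**Figure D5:**
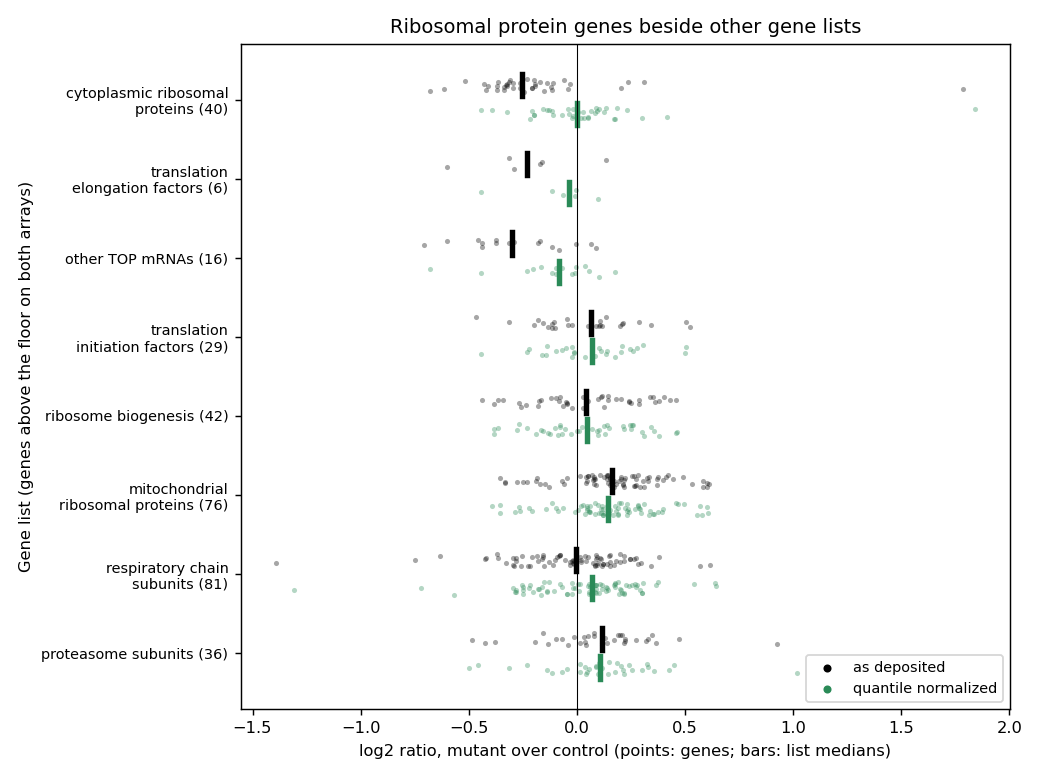
log2 ratio of mutant over control for genes above the floor on both arrays (points) with list medians (bars), as deposited in black and after quantile normalization in green; numbers of genes stand in brackets. The cytoplasmic ribosomal proteins, elongation factors and other TOP messenger RNAs move towards 0 after normalization, while the mitochondrial ribosomal proteins have medians of 0.16 and 0.14.

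Other measures also differed between the arrays, some lower in the mutant as the family was and some higher, and their part in the family's difference was not tested. The 18 spike-in hybridisation controls were all lower in the mutant, with a mean log2 ratio of -0.45, and the 3 probe sets of 18S ribosomal RNA had a mean of -0.45. For RNA quality, the 3′ probe set of Gapdh over its 5′ one gave 2.27 (control) and 1.64 (mutant), and that of Actb 0.989 and 0.998. For the marker counts that follow, the shares over all genes above the floor on both arrays were 51% lower and 49% higher. Blood and erythroid markers numbered 8, with signals that summed to 11582 and 7502. The 4 that exceeded both floors were all lower, Alas2 exceeded the control floor only, and Ptprc, Itga2b and Gata1 exceeded neither. Cushion mesenchyme genes were lower in 5 of 5 cases (summed signals 30327 and 21100). The endothelial markers Pecam1, Cdh5, Tek, Tie1, Kdr, Emcn, Npr3, Nfatc1 and Plvap exceeded the floor on both arrays, and 7 of these 9 were higher in the mutant (summed signals 55022 and 58040). Of 6 epicardial markers (summed signals 4286 and 7575), 5 exceeded both floors and all 5 were higher, Upk1b exceeded the mutant floor only, and cardiomyocyte genes were lower in 4 of 6 cases (10299 and 12495). The 3 Tbx20 probe sets read from 6128 to 7638 in the control and from 4245 to 6416 in the mutant, and the sources used here do not say which exons are removed.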

How the data were processed

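The authors deposited 1 intensity for each probe set and array, and MAS5 is the tool that the submitters' processing notes name. Trimming 2% of probe sets at either end gave a mean of 500 for both arrays, so a single factor scales each one and differences that vary with brightness remain. The sources used here do not give its version. Gene names came from the platform annotation: 34945 probe sets named 1 gene, 932 several and 9160 none.  RefSeq start sites were held for 40 of the 45 members.

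Signals were put on the log2 scale after a floor at each array's median. A gene exceeding the floor on a single array has only a bound. Counts used a fold of 2. Alternatives were quantile normalization, loess (span 0.3), scaling, other floors, a pseudocount and other choices of probe set. With 1 array per genotype no test was computed, and the number of arrays limits the precision. Named genes are those far from the family, the 5 lowest and 5 highest, the 3 brightest and fixed role groups; from other lists, the brightest member and the one with the largest absolute ratio. Other genes were named after their values were seen. Members and lists were chosen with earlier results of these data known. Steps were tested on simulated data. Python 3.11.15, pandas 2.3.3 and R 4.3.3 were used.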

Additional observations from a re-analysis of the deposited data

How the results depend on the processing

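The direction of the family's median depends on how bright signals are scaled, while under median scaling, other floors, the pseudocount and other choices of probe set it stayed below 0, from -0.25 to -0.15 (unsuffixed probe sets). No replicate error exists against which to judge such shifts. With quantile normalization the median of all members was 0.0015 (18 lower, 20 higher), that of the large subunit 0.059 and of the small subunit -0.054. With the reference distribution taken from other probe sets these were 0.025 (16 lower, 24 higher), 0.071 and -0.082. After loess they were -0.072 (14 higher), -0.0029 and -0.11, and after loess fitted without members -0.090 (11 higher), -0.030 and -0.13. Unsuffixed probe sets left 18 members, 13 of them lower, with a small subunit median of -0.11. At 2-fold, the count of 0 lower and 1 higher became 1 and 2 with the floor at the 25th percentile, 1 lower with the pseudocount, 0 higher with the floor at the 75th percentile, and 2 lower at 1.5-fold. Shares over all genes were not counted at these settings, so these counts cannot be set against them. Over respiratory chain genes the sign turned, to 0.071 with quantile normalization, 0.080 with loess and 0.067 with loess fitted without members. Alternatives chosen after seeing the data, among them every probe set naming a member (median -0.22), kept the direction. The median of all genes moved by at most 0.08 under any setting. No paired analysis was possible because each genotype has 1 array. Dim probe sets, where probe sets of 1 gene disagree most, limit what can be said of Rps27 and Rpl39.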

Other observations

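Another 110 probe sets name a ribosomal protein gene together with other genes and stand outside the family as counted above. They name 43 ribosomal protein genes, 28 of which no single-gene probe set reads, among them Rpl3, Rpl5, Rpl10 and Rplp1. Of these probe sets, 102 were above the floor on both arrays, 92 of them lower in the mutant, against 51% of all genes. Their median log2 ratio was -0.22 as deposited and 0.0058 after quantile normalization. The probe set naming Rplp1 and a predicted gene read 22056 and 19184. The brightest that names Rpl5 and a pseudogene read 26755 and 21293. Those naming Rps6 and a pseudogene copy included 4 with control signals from 29021 to 30638, with log2 ratios from -0.54 to -0.24. The 5 that name Rpl14 and a pseudogene had control signals from 22686 to 32156 and ratios from -0.31 to -0.14, whereas the single-gene probe set of Rpl14 read 2461 and was at 0.20. Rps16 and Rpl37, under the floor in their single-gene probe sets, were named with other genes by probe sets reading 28931 and 23852 (Rps16) and 30515 and 27398 (Rpl37). Rps4l, the transcribed pseudogene left out of the family, read 2382 and 2597.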
